A study of Mus musculus with 24 samples.

Results

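The constitutive proteasome genes of mouse macrophages were followed across 6 groups of cultures that differed in genotype and activation state. They were taken as all gene probes whose gene name starts with Psma, Psmb, Psmc or Psmd and a digit, leaving out the immunoproteasome genes Psmb8, Psmb9 and Psmb10. This name rule found 37 genes, read by 70 probes, among 37061 gene names on the array, and 36 of them were among the 25789 genes that could be tested. Of the 37, 34 encode subunits or assembly chaperones of the standard 26S proteasome. The remaining genes were Psma8 and Psmb11, tissue-specific subunits of testis and thymus, and Psmc3ip, which shares the prefix only because its protein binds a proteasome ATPase and acts in meiotic recombination.

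Macrophages had been grown from bone marrow over 6 days in medium with M-CSF at 20 ng/ml, which drives marrow cells into this lineage. The cells came from mice of a cross of LysM-Cre, which expresses Cre recombinase in myeloid cells from the Lyz2 gene, with a floxed Slc2a1 gene, which encodes the glucose transporter GLUT1 (KO), or from Slc2a1 fl/fl floxed controls (WT). For 24 h cells were left untreated (M0), given lipopolysaccharide at 5 ng/ml together with interferon-gamma at 10 ng/ml (M1), or given interleukin-4 at 10 ng/ml (M2). Each of the 6 groups had 4 biological replicates. The labels do not say which animals they came from.

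The proteasome degrades proteins marked with ubiquitin. Its 20S core is a barrel of outer alpha rings, which gate the entrance, and inner beta rings, of which Psmb5, Psmb6 and Psmb7 carry the active sites. The 19S cap binds ubiquitin chains, removes them and unfolds the substrate with a ring of ATPases. In cells exposed to interferon-gamma, Psmb9, Psmb10 and Psmb8 take the places of Psmb6, Psmb7 and Psmb5 and make the immunoproteasome, which favours peptides for presentation on MHC class I. The transcription factor Nfe2l1 raises proteasome genes through antioxidant response elements when proteasome activity falls short.

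Promoters were searched because the genes below moved together with M1 activation. RefSeq promoter sequences on build GRCm38.p6 were matched for 30 of the 37 genes, and the 250 bases before the start site were searched on both strands, counting each motif also where it overlaps another. The antioxidant response element core, TGACNNNGC, was present in 5 of the 30 (16.7%) and in 11.5% of the 27025 genes with a promoter. These 5 are shown with the match in capitals. They lay at chr14:54617996-54618245, minus strand (Psmb5), chr11:70525107-70525356, plus strand (Psmb6), chr14:45329574-45329823, plus strand (Psmc6), chr11:107479278-107479527, plus strand (Psmd12) and chr5:123227940-123228189, plus strand (Psmd9).
Psmb5: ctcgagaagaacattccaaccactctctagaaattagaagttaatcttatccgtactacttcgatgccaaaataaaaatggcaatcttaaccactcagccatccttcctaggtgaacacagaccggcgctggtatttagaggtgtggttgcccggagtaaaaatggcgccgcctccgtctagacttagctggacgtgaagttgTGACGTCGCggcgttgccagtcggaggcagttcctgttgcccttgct
Psmb6: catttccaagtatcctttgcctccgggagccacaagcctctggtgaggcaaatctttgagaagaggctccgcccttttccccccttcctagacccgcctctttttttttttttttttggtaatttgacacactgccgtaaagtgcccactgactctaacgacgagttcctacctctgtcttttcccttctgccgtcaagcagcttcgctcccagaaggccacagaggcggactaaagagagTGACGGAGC
Psmc6: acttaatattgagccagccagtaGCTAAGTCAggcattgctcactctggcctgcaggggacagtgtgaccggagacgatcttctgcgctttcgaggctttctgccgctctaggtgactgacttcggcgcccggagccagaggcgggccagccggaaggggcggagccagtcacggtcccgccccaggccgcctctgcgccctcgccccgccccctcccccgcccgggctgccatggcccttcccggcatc
Psmd12: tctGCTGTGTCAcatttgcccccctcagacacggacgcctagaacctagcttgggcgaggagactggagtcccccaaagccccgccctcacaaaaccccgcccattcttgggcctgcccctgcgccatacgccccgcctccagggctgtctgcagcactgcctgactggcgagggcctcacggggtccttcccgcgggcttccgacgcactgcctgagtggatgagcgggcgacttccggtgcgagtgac
Psmd9: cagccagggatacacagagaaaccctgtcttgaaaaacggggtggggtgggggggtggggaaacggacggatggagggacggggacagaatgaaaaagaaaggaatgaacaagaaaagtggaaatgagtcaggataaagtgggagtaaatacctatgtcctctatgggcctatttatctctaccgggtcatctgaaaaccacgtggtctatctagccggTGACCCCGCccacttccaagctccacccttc
The match ended just before the annotated start in Psmb6 and began 47 bases before it in Psmb5. It lay on the opposite strand at the far end of the window in Psmc6 and Psmd12. CTTCCGG, the core bound by ETS factors, was found in 10 of 30 (33.3%) against 7.83% of all genes, GGGCGG, the GC box, in 17 of 30 (56.7%) against 35.4%, and CCAAT in 13 of 30 (43.3%) against 37.5%. Psmd4 and Psmd8, whose levels differed most between the genotypes in M1 among the proteasome subunits, had no TGACNNNGC in this window. Their promoters (chr3:95042615-95042864, minus strand, and chr7:29180674-29180923, minus strand) are shown with CTTCCGG capitalised in Psmd4 and GGGCGG in Psmd8. In Psmd4 the motif reads on the opposite strand.
Psmd4: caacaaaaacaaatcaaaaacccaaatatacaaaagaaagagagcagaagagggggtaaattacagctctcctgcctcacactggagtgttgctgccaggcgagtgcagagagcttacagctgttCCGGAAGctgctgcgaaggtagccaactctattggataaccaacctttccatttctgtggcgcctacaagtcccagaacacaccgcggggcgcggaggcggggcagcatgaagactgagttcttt
Psmd8: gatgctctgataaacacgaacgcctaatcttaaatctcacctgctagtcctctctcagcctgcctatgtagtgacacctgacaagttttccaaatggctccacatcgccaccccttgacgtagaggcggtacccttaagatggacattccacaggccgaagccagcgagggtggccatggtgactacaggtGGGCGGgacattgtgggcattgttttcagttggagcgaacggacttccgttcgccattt
These matches describe letters in a window, and no binding was measured.

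The 24 one-colour arrays lay on 3 slides that held 3 complete sets of the 6 groups and, in their last positions, 3 WT and KO pairs that together made a 4th set. Levels are log2 intensities relative to the array's 75th percentile, which was lowest in KO M1 (1504 to 1705 intensity units, against 1810 to 2364 in WT M1). On an array 53.1% to 71.4% of gene probes were well above background. The 4th set stood apart: Ddx3y, Uty and Eif2s3y, genes of the Y chromosome, were well above background on 0 of its 6 arrays and on all 18 others. Xist, a gene of the X chromosome, was well above background on all 6 and on 2 of the 18 others. The sets may differ in the sex of the mice, and the part of this in the results was not tested. The level of Slc2a1, the targeted gene, ranged from 2.06 to 3.76 in WT M0, 5.02 to 6.17 in WT M1 and 2.91 to 4.37 in WT M2. In KO it ranged from 1.86 to 3.1, 5.81 to 6.11 and 3.04 to 3.64, and the genotypes did not pass the test in any state. The sources used here do not say whether its probe lies in the deleted part, so it checks no label. Lyz2, which hosts the Cre insertion, was lower in KO in M0, M1 and M2 (-2.66, -3.37 and -4.04 on the log2 scale). Among the KO arrays, that of the 4th set had the highest Lyz2 level in M0, M1 and M2 (6.33, 5.27 and 4.85). The other KO arrays reached at most 4.72, 4.77 and 3.46. All 7 macrophage markers examined, among them Csf1r and Cd68, were well above background on every array. In KO M1, Cd68 was higher than in WT M1 (0.52), Mertk was lower (-1.50) and the 5 others did not pass. The erythroid gene Hbb-b1 was above background on 0 of 24 arrays. Of 8 neutrophil markers, Camp, S100a9 and Ngp were higher in KO M1 than in WT M1 and Ly6g was lower. The summed level of the 8 was 20.4 to 75.1 times the 75th percentile in WT M1 and 72.2 to 185 times in KO M1, and their part in the results was not tested. Of 3 lymphocyte markers 1 was higher in KO M1 (summed level 0.663 to 0.935 in WT and 0.663 to 1.14 in KO), of 4 measured dendritic cell markers 1 was lower (2.69 to 12.1 and 3.22 to 15.6), and of 4 fibroblast markers 0 passed (0.931 to 1.36 and 0.791 to 4.01). All 4 fibroblast markers had a positive difference between KO M1 and WT M1, with a median of 0.82. These are bulk samples, in which a different share of a cell type and a different amount of RNA per cell cannot be told apart.

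All 36 tested members were well above background on all 24 arrays, and Psmb11, the thymus-specific catalytic subunit, was not well above background on any of the 24 arrays. The median level of the 34 proteasome genes on an array ran from 4.46 to 4.83 in WT M0 and from 4.47 to 4.66 in KO M0. It ran from 5.17 to 5.49 in WT M1 and from 5.04 to 5.60 in KO M1. In WT M2 it spanned 4.43 to 5.11, and in KO M2 4.35 to 4.79. The M1 arrays of both genotypes thus lay above all M0 arrays, whereas the M2 arrays overlapped them. The lowest array of each group was the one of the 4th set.

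**Figure D1:**
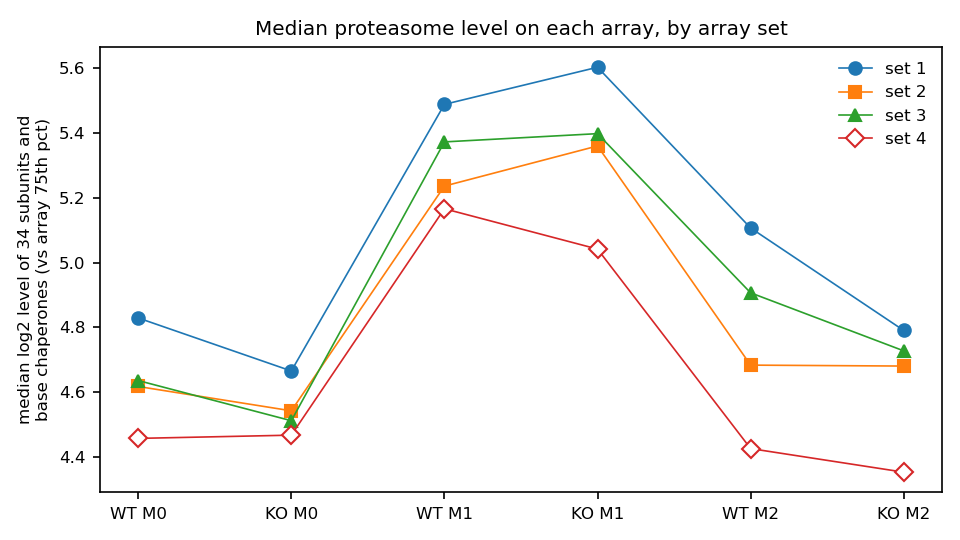
Median log2 level of the 34 proteasome subunits and base chaperones on each of the 24 arrays (y axis, relative to the array's 75th percentile) by group (x axis), with 1 line per array set. All M1 points lie between 5.04 and 5.60, above the M0 points at 4.46 to 4.83, and the 4th set is the lowest in every group.

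M1 activation raised most of these genes in WT cells. Of 36 members, 28 rose and 1 fell (adjusted p under 0.05, limma with Benjamini-Hochberg adjustment over all genes, used for every call below), where 26% of all genes tested rose and 21.9% fell (47.8% in either direction). The median difference over the members was 0.69, against 0.05 over all genes. All 28 genes that rose were among the 34 proteasome genes, and the gene that fell was Psmc3ip. The 4 WT M1 arrays lay wholly above the 4 WT M0 arrays for 30 members and wholly below for 1, where this held for 24.7% and 20.5% of all genes. In the 4 array sets the members' median was 0.65, 0.63, 0.69 and 0.78. In the same comparison 6 of 8 neutrophil markers fell and 1, Ly6g, rose (median of the list -3.19, summed level 94.8 to 257.8 in M0 and 20.4 to 75.1 in M1). Of 4 measured dendritic cell markers 3 rose, Ccr7 by 7.01 (median 4.14, summed level 0.116 to 0.226 in M0 and 2.69 to 12.1 in M1). Their part in the members' rise was not tested.

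The alpha ring rose as a whole, 7 of 7, by 0.65 to 1.37. Its largest rise was that of Psma5, which lay at 5.00, 4.70, 5.10 and 5.08 in replicates 1 to 4 of WT M0 and at 6.47, 6.35, 6.09 and 6.44 in WT M1. The groups did not overlap, and the difference was 1.37 ± 0.18 (SE; 2.58-fold, adjusted p = 2.36e-06). Psma4 came to 6.34, 6.24, 6.08 and 6.15 in WT M1 from 5.37, 4.95, 5.16 and 5.28, a difference of 1.01 ± 0.15 (adjusted p = 8.68e-06). Of the beta subunits without an active site, Psmb2, Psmb3 and Psmb4 rose, while Psmb1 stood at 0.29 ± 0.12 (adjusted p = 0.0631).

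All 3 catalytic subunits rose. Psmb5, the chymotrypsin-like subunit, had the largest rise of all members: it lay at 4.45, 3.38, 3.87 and 3.78 in WT M0 and at 5.60, 5.24, 5.03 and 5.34 in WT M1, a difference of 1.43 ± 0.26 (2.70-fold, adjusted p = 9.22e-05). Psmb7, the trypsin-like subunit, went from 3.53, 2.78, 3.40 and 3.30 to 4.27, 4.08, 4.20 and 4.05, a difference of 0.90 ± 0.17 (adjusted p = 1.97e-04). Psmb6, the caspase-like subunit, went from 6.22, 5.78, 6.17 and 6.23 to 6.64, 6.64, 6.63 and 6.74, a difference of 0.56 ± 0.15 (adjusted p = 0.00406). For each of the 3 genes the M1 arrays lay above all M0 arrays.

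The immunoproteasome counterparts also rose in the same cultures. Psmb9 rose by 2.77 ± 0.12, Psmb8 by 2.46 ± 0.16 and Psmb10 by 1.91 ± 0.12 in WT (adjusted p = 1.2e-12, 2.32e-10 and 3.01e-10), and in KO they rose by 2.51, 2.49 and 1.75. None of the 3 passed the test between the genotypes in M1 (-0.24, 0.07 and -0.27), but under quantile normalization, which gives all arrays the same distribution of values, 2 of the 3 were lower in KO. Both kinds of catalytic subunit were thus higher in M1, and the size of a difference of one probe is not a measure of the protein made.

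**Figure D2:**
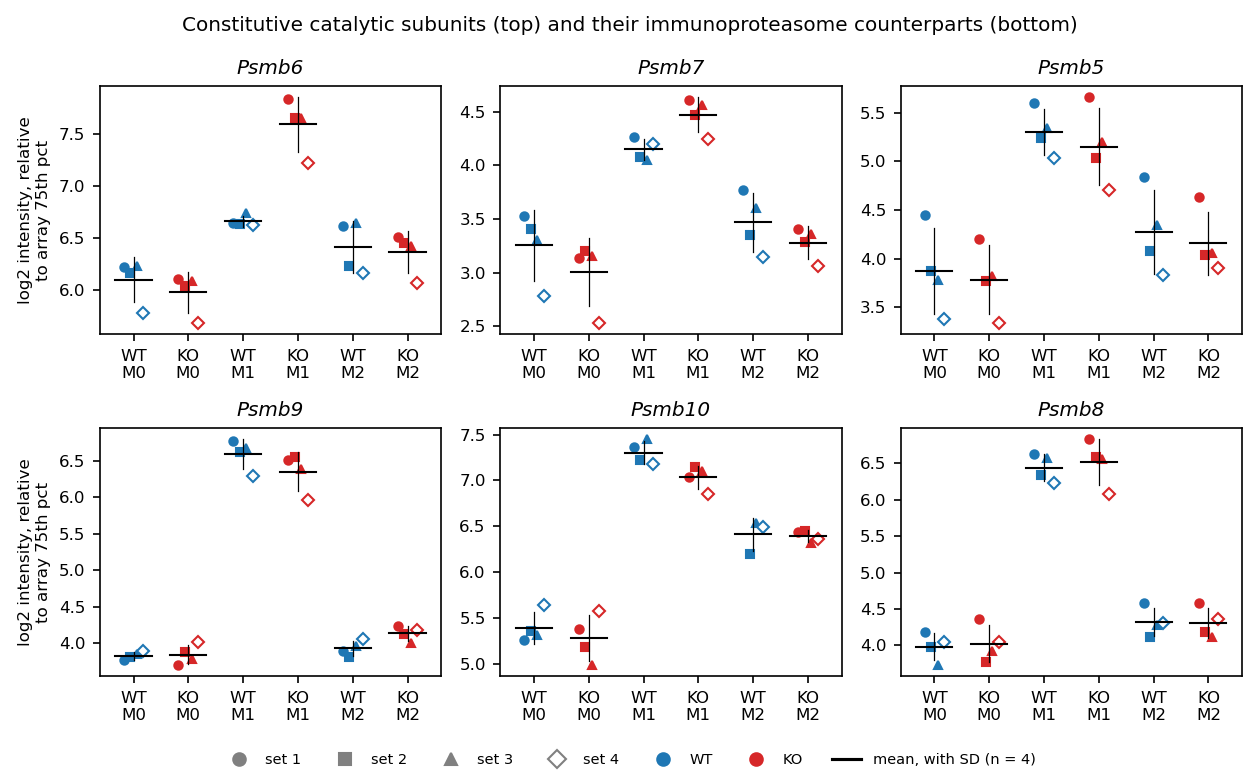
Level of the constitutive catalytic subunits Psmb6, Psmb7 and Psmb5 (top) and of the immunoproteasome subunits that replace them, Psmb9, Psmb10 and Psmb8 (bottom), as log2 intensity relative to the array's 75th percentile. Each point is 1 array, its shape gives the array set, and bars are the group mean and SD. Psmb6 reaches 7.22 to 7.84 in KO M1 against 6.63 to 6.74 in WT M1, whereas the KO and WT arrays of Psmb5 overlap.

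In the 19S cap of WT cells 5 of 6 ATPases rose (Psmc1, Psmc2, Psmc4, Psmc5 and Psmc6, by 0.41 to 0.75), and Psmc3 stood at 0.08 ± 0.13. Psmc2 did not pass under quantile normalization (0.18), with the mean of its probes (0.18) or with outlier spots kept (0.39), and Psmc4 not with the mean of its probes (0.83, adjusted p = 0.0533). Among the base scaffold and ubiquitin receptor genes, the scaffold gene Psmd2 rose by 0.69, and the scaffold gene Psmd1 (0.35) and the ubiquitin receptor Psmd4 (0.22 ± 0.11, adjusted p = 0.117) did not pass. Of 8 lid subunits, 7 rose, led by Psmd11 with 1.34 ± 0.18 and Psmd7 with 1.03 ± 0.15. Psmd14, the deubiquitinase of the lid, rose by 0.88, and Psmd6 stood at 0.10 ± 0.13. The rise of Psmd12 (0.39 ± 0.14) did not pass under quantile normalization (0.15), without the 4th set (0.26, adjusted p = 0.0724) or without WT M0 replicate 2 or 4 or WT M1 replicate 3 (adjusted p = 0.0654 to 0.0917). Of the base chaperones, Psmd5 and Psmd10 rose by 0.85 and 0.55, and Psmd9 stood at -0.18 ± 0.16.

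KO cells also raised the proteasome genes on M1 activation: 32 of 36 members rose and 1, Psma8, fell, where 33% of all genes rose and 23.5% fell (56.5% in either direction). The M1 arrays lay wholly above the M0 arrays for 28 members and wholly below for 0, where this held for 29.4% and 21.8% of all genes. The members' median was 0.93, against 0.25 over all genes. With quantile normalization, which moved the median of all genes to 0.04, 20 members rose and 5 fell, their median was 0.34, and calls over all genes were 47.2% higher rather than 58.4%. These are 55.6% and 13.9% of the members, where 25.8% of all genes rose and 28.8% fell. The same scaling left WT cells at 26 rises and 1 fall, with a median of 0.47, where 24.1% of all genes rose and 24.5% fell. Among the 34 proteasome genes, 28 rose in both genotypes, 4 were called in KO alone (Psmb1, Psmc3, Psmd1 and Psmd4) and Psmd6 and Psmd9 in neither. This split depends on probe and setting. Other Psmd4 probes passed in WT (0.37 and 0.46, adjusted p = 0.0091 and 0.0115 in a limma fit over all probes). Other Psmd6 probes passed in KO in that fit (0.34 and 0.32, adjusted p = 0.0231 and 0.0328). With the replicate number or the array set as a block, Psmb1 and Psmd1 passed in WT and Psmd9 in KO. In KO 4 of the rises were lost without single arrays. Psma1 and Psmd5 lost the call without KO M0 replicate 2 or 4 or KO M1 replicate 1, 2 or 4 (adjusted p = 0.0638 to 0.112 and 0.0545 to 0.0794). Psmd13 lost it without KO M0 replicate 2 or KO M1 replicate 1, 2 or 4 (0.0576 to 0.0922), and Psma6 without KO M1 replicate 1 (0.0615).

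**Figure D3:**
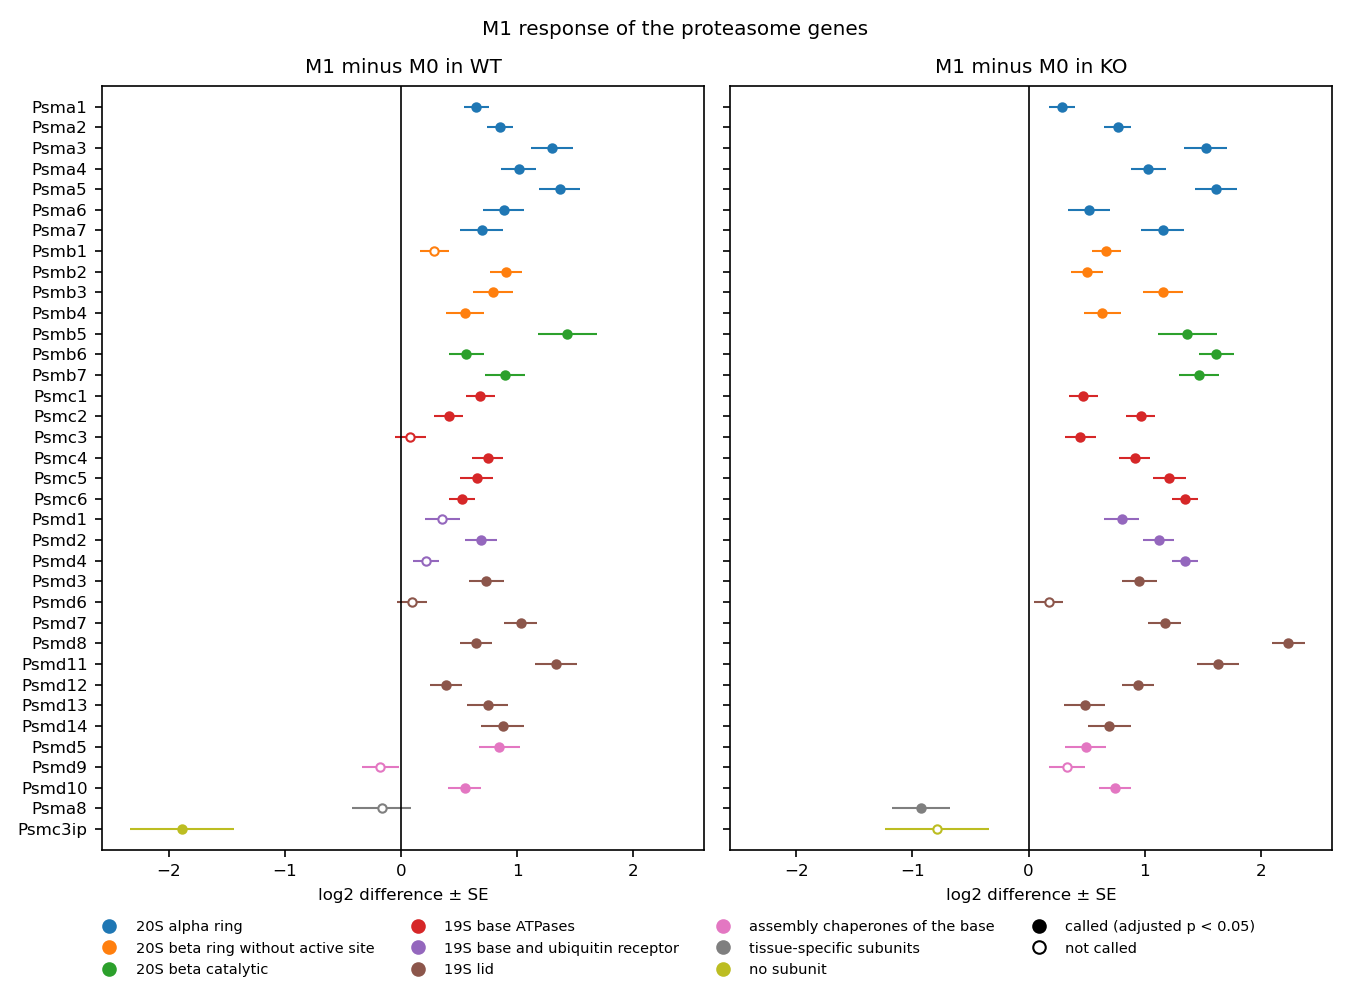
Log2 difference between M1 and M0 (x axis, ± SE of the limma fit, 4 arrays per group) for each of the 36 tested members (y axis), in WT (left) and KO (right), coloured by role. Filled points passed an adjusted p of 0.05. WT rises run up to 1.43 in Psmb5 and KO rises up to 2.24 in Psmd8.

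The M1 response itself was compared between the genotypes. It was larger in KO for 7 members and smaller for 0, where 15% of all genes had a larger and 14.8% a smaller response (29.8% in either direction). At an unadjusted p under 0.05 in limma 12 were larger and 2 smaller. The 7 were the lid subunits Psmd8 (difference of the responses 1.59 ± 0.20) and Psmd12 (0.56 ± 0.19), the ubiquitin receptor Psmd4 (1.13 ± 0.16), the catalytic subunit Psmb6 (1.05 ± 0.21) and the ATPases Psmc6 (0.82 ± 0.16), Psmc5 (0.56 ± 0.20) and Psmc2 (0.56 ± 0.18). The members' median was 0.24 against 0.12 over all genes (0.34, 0.31, 0.33 and 0.02 in the 4 sets), and -0.07 under quantile normalization, which called 4 larger and 6 smaller. These are 11.1% and 16.7% of the members, close to the 12.8% and 17.8% of all genes under that scaling. Psmd8, Psmd4 and Psmb6 kept this call under each of 10 alternatives and with each single array left out. Psmc6 turned to -0.11 with the mean of its probes. Psmc5 lost the call in 11 of the 24 fits without 1 array (WT M0 replicates 1, 3 and 4, WT M1 replicates 2, 3 and 4, KO M0 replicates 2 and 4 and KO M1 replicates 1, 2 and 4), with differences of 0.49 to 0.58 and adjusted p of 0.0533 to 0.0862. Psmd12 lost it in 9 (WT M0 replicates 1 and 3, WT M1 replicates 1, 2 and 4, KO M0 replicates 2 and 4 and KO M1 replicates 1 and 2), with differences of 0.48 to 0.55 and adjusted p of 0.0554 to 0.0776. Psmc2 lost it without KO M1 replicate 1 (0.47, adjusted p = 0.054) and under 4 of the alternatives. With the replicate number as a block 10 members had a larger and 1 a smaller response, where 15.9% of all genes were called in each direction. With the array set as a block they were 16 and 3, where 20.2% of all genes had a larger and 18.3% a smaller response.

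KO and WT cells were then compared within M1. In KO M1, 8 members were higher and 5 lower than in WT M1, where 22.7% of all genes were higher and 21.3% lower. The share of members called, 36.1%, was below the 43.9% of all genes, and the members' median, 0.12, was close to that of all genes, 0.13. The calls fell on single subunits in both directions. All 4 KO arrays lay above the WT arrays for 8 members and below them for 4, where this held for 22.1% and 21.2% of all genes. The 4 sets gave medians of 0.27, 0.19, 0.13 and -0.05. With the array set as a block, 16 were higher and 8 lower, 66.7% of the members against 54.2% of all genes (29.7% higher and 24.5% lower), so that the members' share then lay above that of all genes. Under quantile normalization, which moved the median of all genes to -0.05 and the share of calls that were higher from 51.6% to 42.1%, 5 were higher and 12 lower, and the members' median was -0.09. These calls were 47.2% of the members against 43.7% of all genes (18.4% higher and 25.3% lower), again above the share of all genes. Without the arrays of the 4th set 12 were higher and 4 lower (44.4% called against 51.5% of all genes), and leaving out WT M1 replicate 2 gave 5 and 3. This comparison and the M1 responses above share the M1 arrays.

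Psmd8, a lid subunit, differed most. Its 60-base probe spans mm9 chr7:29961170-29962121, across a splice junction of the mRNA. It lay at 4.93, 5.00, 4.87 and 4.98 in replicates 1 to 4 of WT M1 and at 6.32, 6.24, 6.02 and 6.29 in KO M1. Every KO array was higher than every WT array, by 1.27 ± 0.14 in the fit (2.42-fold, adjusted p = 2.15e-07) and by 1.15 to 1.39 within the sets. In M0 the same gene lay at 4.44, 3.93, 4.47 and 4.36 in WT and at 4.12, 3.64, 4.12 and 4.05 in KO, lower in KO in all 4 sets but not past the test (-0.32 ± 0.14, adjusted p = 1).

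Psmd4, the ubiquitin receptor also called Rpn10, was read at mm9 chr3:94836627-94836686. Its levels were 5.62, 5.30, 5.47 and 5.42 in WT M1 and 6.62, 6.33, 6.12 and 6.49 in KO M1. The difference was 0.94 ± 0.11 (1.92-fold, adjusted p = 6.82e-07), with no overlap between the groups. The WT M0 levels of Psmd4 were 5.22, 5.23, 5.21 and 5.28, all just under the WT M1 arrays. In KO cells it started from 5.05, 5.07, 5.11 and 4.94 and rose by 1.35 ± 0.11 (adjusted p = 2.2e-09).

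Of the catalytic subunits, Psmb6 was called between the genotypes. Its probe at mm9 chr11:70341093-70341152 gave 7.84, 7.65, 7.22 and 7.65 in KO M1 against 6.64, 6.64, 6.63 and 6.74 in WT M1. That is 0.93 ± 0.15 (1.91-fold, adjusted p = 3.39e-05), and the groups did not overlap. Psmb7 lay at 4.61, 4.47, 4.25 and 4.57 in KO M1, higher than WT in all 4 sets, without passing the test (0.32 ± 0.17, adjusted p = 0.135), and it passed with the array set as a block. Psmb5 lay at 5.66, 5.04, 4.71 and 5.20 in KO M1 and overlapped WT M1 (-0.15 ± 0.26, adjusted p = 0.66).

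The other proteasome genes higher in KO M1 were the ATPases Psmc6 (0.62 ± 0.11) and Psmc2 (0.40 ± 0.13), the lid subunit Psmd12 (0.39 ± 0.14) and the beta subunit Psmb1 (0.33 ± 0.12). Psmd8, Psmd4, Psmb6 and Psmc6 passed in every fit without 1 array, and all 4 passed under quantile normalization (0.92, 0.55, 0.53 and 0.23). Psmb1, Psmc2 and Psmd12 did not pass under it (0.10, 0.10 and 0.15). The 3 also lost the call without single arrays. Psmc2 lost it in 1 of 24 fits (0.32 without KO M1 replicate 1, adjusted p = 0.0567). Psmd12 lost it in 5 (WT M1 replicates 1, 2 and 4 and KO M1 replicates 1 and 2, adjusted p = 0.0507 to 0.0884) and Psmb1 in 6 (the same arrays and KO M1 replicate 4, adjusted p = 0.0769 to 0.1).

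Lower in KO M1 were 4 proteasome genes. Psmb2, a beta subunit without an active site, lay at 3.31, 3.25, 3.25 and 3.25 in WT M1 and at 2.87, 2.76, 2.29 and 2.79 in KO M1. No KO array reached the WT arrays, and the difference was -0.59 ± 0.14 (adjusted p = 0.00152). With the mean of its 3 probes it was -0.24 and did not pass. Psmd5, a chaperone of base assembly, gave 3.22, 3.29, 3.02 and 3.21 in WT M1 and 2.92, 2.80, 2.22 and 2.79 in KO M1, a difference of -0.50 ± 0.18 (adjusted p = 0.0269). Psmd5 fell short of the call without the 4th set (-0.40, adjusted p = 0.0543) and in 4 of 24 fits without 1 array (WT M1 replicate 1, 2 or 4 or KO M1 replicate 3 left out, adjusted p = 0.0526 to 0.113). The alpha subunit Psma1 (-0.45 ± 0.11) and the ATPase Psmc1 (-0.34 ± 0.12) were lower on all 4 KO arrays than on any WT array. Psma1 kept its call in all of these fits, and Psmc1 lost it in 3 (WT M1 replicate 1 or 2 or KO M1 replicate 3 left out, adjusted p = 0.0525 to 0.116) and with outlier spots kept. Quantile normalization gave larger falls for both, -0.75 each.

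**Figure D4:**
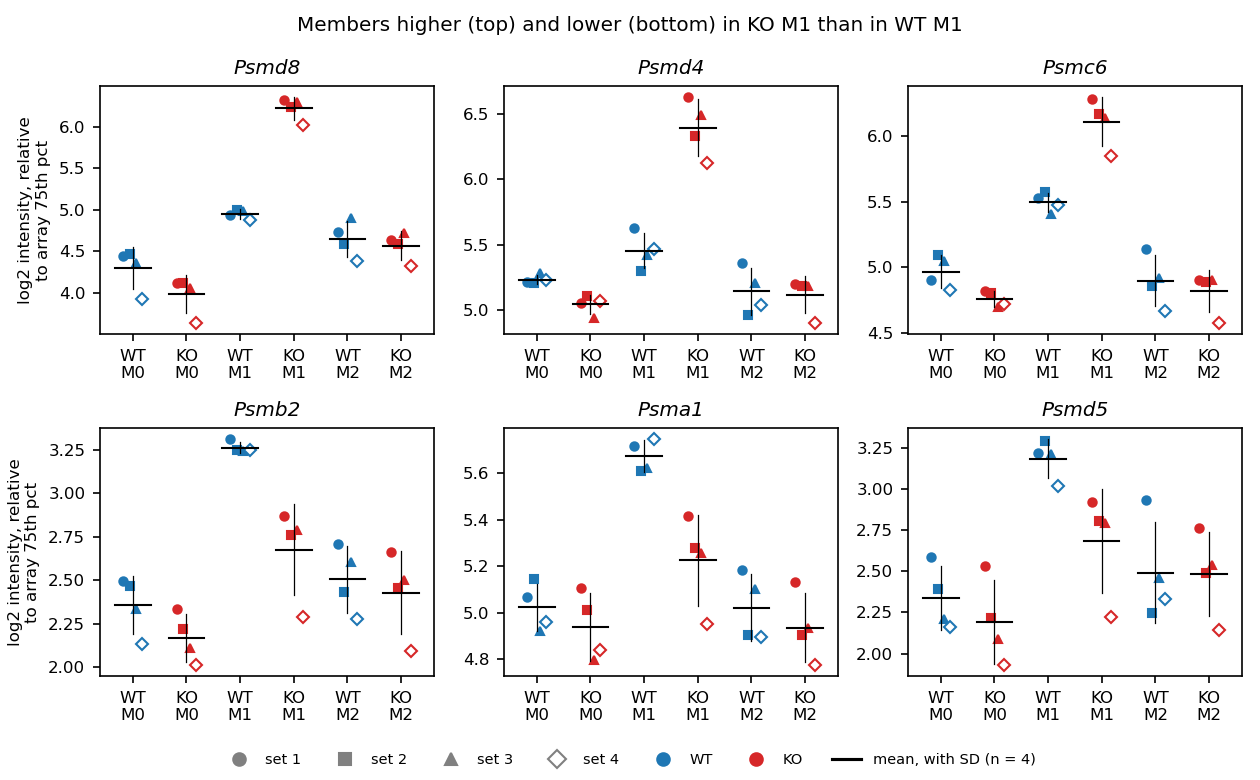
Levels on each array (log2 intensity relative to the array's 75th percentile, y axis) in the 6 groups for 3 members higher in KO M1 than in WT M1 (Psmd8, Psmd4 and Psmc6, top) and 3 lower (Psmb2, Psma1 and Psmd5, bottom). Point shapes give the array set and bars the group mean and SD, n = 4. The 4 KO M1 arrays of Psmd8 sit between 6.02 and 6.32, above 4.87 to 5.00 in WT M1.

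Outside M1 no member was called between the genotypes. In M0, 0 of 36 members were called in either direction, where 0.00776% of all genes were higher and 0.0465% lower in KO (0.0543% in either direction). At an unadjusted p under 0.05 in limma 1 member, Psmd8, was lower. The differences lay between -0.32 and 0.16 and leaned one way: 35 of 36 were negative, the exception being Psmc3ip, with a median of -0.11 against -0.01 over all genes. With quantile normalization the median was -0.04 and 27 of the 36 were negative. The 4 KO arrays lay wholly below the WT arrays for 3 members, Psmc1, Psmc6 and Psmd4, and wholly above for 0, where this held for 1.44% and 0.783% of all genes. The 4 sets gave medians of -0.11, -0.12, -0.15 and -0.09. In M2, 0 of 36 members were called, where 0.0155% of all genes were higher and 0.0271% lower (0.0427% in either direction), and 0 passed an unadjusted p under 0.05 in limma. The median was -0.11 against 0.03 over all genes, and 34 members were negative. In sets 1, 3 and 4 the median was -0.17, -0.23 and -0.09, and in set 2 it was 0.04.

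**Figure D5:**
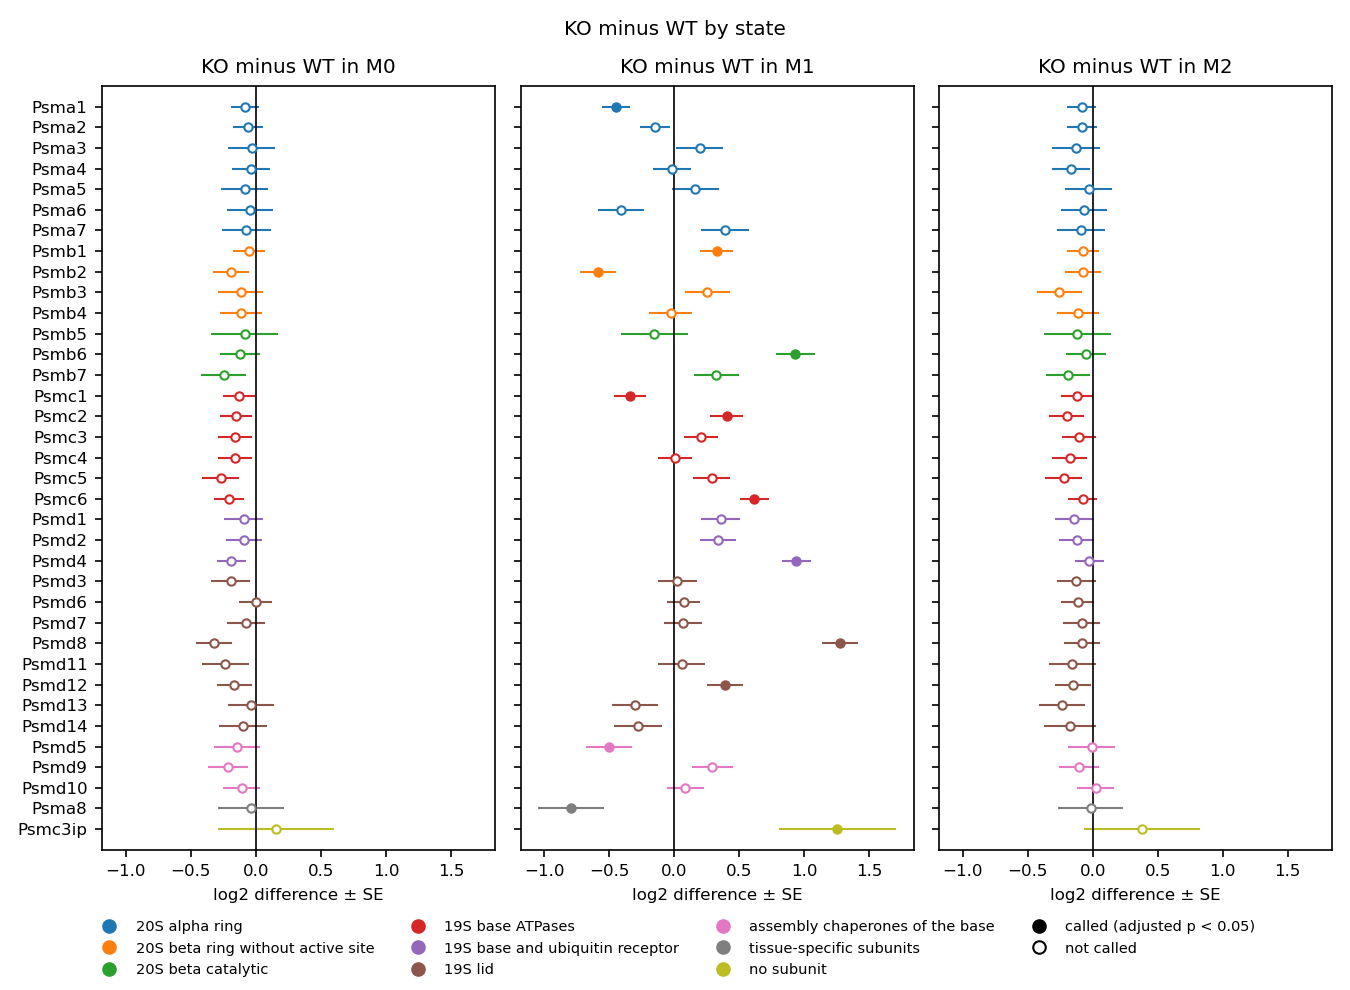
Log2 difference between KO and WT (x axis, ± SE of the limma fit, 4 arrays per group, 3 for Psmc2 and Psmd14 in WT M2) for the 36 tested members in M0, M1 and M2, coloured by role. Filled points passed an adjusted p of 0.05, 0 in M0, 13 in M1 and 0 in M2. Values in M1 spread from -0.79 in Psma8 to 1.27 in Psmd8.

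With interleukin-4 the members' median difference from M0 was smaller than with M1 activation, and the members leaned upward, with 32 of 36 positive in WT and 35 of 36 in KO. This lean depended on scaling and arrays. Under quantile normalization 27 of 36 were positive in WT and 23 in KO. In set 2 of WT 14 of 34 were positive, with a median of -0.05. Without WT M2 replicate 1, 23 of 36 were positive in WT. In WT 1 of 36 members rose and 0 fell, where 6.27% of all genes rose and 8.84% fell (15.1% in either direction), with a median of 0.15 against -0.09. The gene was Psma4, an alpha subunit, at 6.01, 5.66, 5.94 and 5.44 in WT M2, above its M0 arrays, with a difference of 0.57 ± 0.15 (adjusted p = 0.0108). In KO 1 member rose and 0 fell, where 6.84% of all genes rose and 6.2% fell (13% in either direction), with a median of 0.17 against -0.06. That gene was Psmd8, at 4.63, 4.59, 4.72 and 4.32 in KO M2, above its M0 arrays, with a difference of 0.59 ± 0.14 (adjusted p = 0.00731). Neither rise was particular to its genotype. The brightest Psma4 probe gave 0.44 in KO without passing. Its other probes passed there (0.56, 0.58 and 0.70, adjusted p = 0.0194, 0.016 and 0.00349 in a limma fit over all probes). Psmd8 passed in WT with the array set as a block and without the 4th set. With the array set as a block 10 members rose in WT and 7 in KO, among them Psmb5 and Psmb6 in both, and 0 fell. These are 27.8% and 19.4% of the members, where 9.58% and 11% of all genes rose under the same fit. Leaving out the 4th set gave 4 and 5 rises (11.1% and 13.9%, against 7.54% and 8.32% of all genes). At an unadjusted p under 0.05 in limma 3 members rose in WT and 4 in KO, and 0 fell. Without WT M2 replicate 4 the count in WT was 3, and without KO M2 replicate 4 that in KO was 3. The M2 response did not differ between the genotypes for any of the 36 members, where 0% of all genes were called, and 0 members passed an unadjusted p under 0.05 in limma.

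The members outside the standard proteasome moved apart from it. Psmc3ip lay at 0.95, -1.16, -0.05 and -0.02 in WT M0 and at -1.91, -2.01, -2.05 and -1.86 in WT M1, a fall of 1.89 ± 0.45 on the log2 scale (adjusted p = 0.00149). In KO M1 it lay at -0.75, -0.63, -0.77 and -0.66, above every WT M1 array (1.25 ± 0.45, adjusted p = 0.0277), and it missed the threshold in 4 of 24 fits without 1 array (WT M1 replicate 2 or 3 or KO M1 replicate 2 or 4 left out, adjusted p = 0.0535 to 0.0551). Psma8 lay at -1.40, -1.38, -0.48 and -1.13 in WT M1 and at -2.21, -1.08, -2.14 and -2.15 in KO M1, a difference of -0.79 ± 0.25 (adjusted p = 0.0137) with overlapping arrays. In set 2 the KO array was the higher one. The call was lost without WT M1 replicate 3 (adjusted p = 0.0649) and without the 4th set (adjusted p = 0.119).

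Where a called member had several probes they mostly moved alike. The 13 members called between KO M1 and WT M1 had 10 further probes, of which 7 had the sign of the brightest probe, including all 5 designed on a RefSeq mRNA. A second Psmb6 probe gave 1.08 and a second Psmd4 probe 1.03, while the single probe of Psmd8 has no such check. Of the 3 that went the other way, a dimmer probe of Psmc6 gave -0.88, a probe on another transcript of Psmb2 0.52 and one of Psmd4 -0.16. Those of Psmc6 and Psmb2 passed in this opposite direction (adjusted p = 0.00656 and 0.0166 in a limma fit over all probes). For Psmc6 the mean of both probes was -0.13, so its direction rests on the brighter one. Among members not called, probes on other transcripts of Psmd7 and Psma3 gave 1.09 and 1.32, where the brightest gave 0.07 and 0.19. A second RefSeq mRNA probe of Psma3 gave 0.27. With the mean of a gene's probes Psma3, Psmd1 and Psmd7 were called higher in KO M1.

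The proteasome genes varied together from array to array within a group. After group means were removed, each of the 34 correlated with the median of the others over the 24 arrays at Pearson's r of 0.70 to 0.97, and after set means were also removed at 0.17 to 0.86. Over all genes the median r was 0.15 and 0.13, and the 95th percentile 0.81 and 0.57. Some of the 34, such as Psmd2 (0.70) and Psmd4 (0.72), lay below the first of these percentiles. Psmc3ip, which is no subunit, had an r of 0.82 and 0.19, so a high r with group means removed was not particular to proteasome genes. These are descriptions of arrays that share sets and scaling, and carry no test.

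The other genes of the pathway, chosen as lists, gave a mixed picture in KO M1. Of 35 measured genes, 16 were higher and 4 lower than in WT M1, with a median of 0.22. For all genes these shares were 22.7% and 21.3%. Under quantile normalization 13 were higher and 9 lower, with a median of 0.06, where 18.4% of all genes were higher and 25.3% lower. Psme2 and Paaf1 were not analysed here. Nfe2l1, which raises proteasome genes, was higher in KO M1 by 0.82 ± 0.12 (adjusted p = 1.02e-05) and rose with M1 by 0.83 in WT and 1.61 in KO. The other 3 genes of that list, the related factor Nfe2l2 and the Nfe2l1-processing enzymes Ddi2 and Ngly1, did not pass between the genotypes in M1 (0.22, 0.09 and -0.12). With M1 these 3 fell in both genotypes, down to -0.86 in WT and -0.72 in KO, where 21.9% and 23.5% of all genes fell. Ddi2 and Nfe2l2 lost these calls with the mean of their probes, and Ngly1 lost that in WT without WT M0 replicate 2.

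Ubiquitin genes and shuttle factors had the most calls. In KO M1, 9 of 11 exceeded WT M1 and 1 was below it, where 22.7% of all genes were higher and 21.3% lower. Under quantile normalization they were 7 and 1, where 18.4% of all genes were higher and 25.3% lower. The largest differences were those of the shuttle factor Ubqln4 with 1.17 ± 0.14 and Rps27a, a fusion gene of ubiquitin and a ribosomal protein, with 1.11 ± 0.12. The lower gene was the ubiquitin-activating enzyme Uba1 (-0.33 ± 0.12). Uba1 lost the call in 3 of 24 fits without 1 array (adjusted p = 0.0504 to 0.121), without the 4th set and with outlier spots kept. Ubb lost it in 4 (adjusted p = 0.0558 to 0.0872), under quantile normalization (0.06) and with outlier spots kept. Vcp lost it without KO M1 replicate 1 (adjusted p = 0.0564) and under quantile normalization (0.13). Of 8 other cap and associated genes, 5 were higher, led by the proteasome adaptor Ecpas (0.87) and the zinc finger gene Zfand2a (0.76), and 0 lower. Of the 5, Usp14 lost the call in 7 of the fits without 1 array (adjusted p = 0.0507 to 0.0905) and under 3 alternatives. Zfand5 lost it with the mean of its probes. Among 5 measured 20S assembly factors, Psmg2 was higher by 1.06 ± 0.15, whereas Psmg3 (-0.75) and Pomp (-0.57) were lower. Of the 4 measured activators and inhibitor, 0 were higher and 1, the 20S inhibitor Psmf1, was lower by 1.04 ± 0.10 on the log2 scale (adjusted p = 3.7e-08). It rose by 0.55 with M1 in WT and fell by 0.51 on the log2 scale in KO, where the mean of its probes gave 0.29. None of the 35 genes was called between the genotypes in M0 or M2 in limma, where 2 and 0 had an unadjusted p under 0.05.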

How the data were processed

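RNA of 24 macrophage cultures was labelled with Cy3 and hybridised to Agilent mouse arrays, 1 per culture. The deposited values are spot intensities, background-subtracted and detrended within the array per the file headers, which name Feature Extraction 10.7.3.1 (the submitters' processing notes name 9.1). They were not normalized between arrays. The series' value table was not analysed, since its identifiers do not match the probes.

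Outlier spots were left out, and log2 of the deposited intensity was taken relative to the array's 75th percentile. Probes well above background on at least 4 of 24 arrays were kept (39038), and the brightest stood for its gene. Group means were compared with limma 3.58.1 in R 4.3.3 (18 residual degrees of freedom), with p-values adjusted by Benjamini-Hochberg over 25789 genes and a threshold of 0.05. The fit was tested on simulated data. A missing single value is left out of the fit, as in Psmc2, Psmd14 and Psmb10.

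Members were named by role. Given array by array were Psmb5, Psmb6 and Psmb7, the 3 largest rises and falls called between KO M1 and WT M1, and the 2 largest called in each direction for M1 and M2 in WT. Members and lists were chosen with earlier results of these data known. Same-numbered WT and KO arrays of a state always shared an array set, and their deviations from group means correlated at 0.17 to 0.84. Some arrays of different number correlated more. WT M0 replicate 3 gave 0.39 with KO M0 replicate 4 and 0.24 with KO M0 replicate 3. The correlations therefore do not show whether the numbers pair cultures beyond the shared set. The main fit used no pairing or block. Across states the numbers do not match the sets. Alternatives were quantile normalization, normexp background correction (offset 50), other probe filters, the mean of a gene's probes, replicate, slide or set as a block, outlier spots kept, and leaving out 1 array or the 4th set. Where labels do not show separate animals, p-values measure the spread between these samples. The number of arrays limits precision. Some genes of the ubiquitin list are not reported here.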

Additional observations from a re-analysis of the deposited data

Results flagged for a closer look

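The M1 response differed between KO and WT by the test of the difference itself for 7 members, all larger in KO: Psmd8 (1.59), Psmd4 (1.13), Psmb6 (1.05), Psmc6 (0.82), Psmc5 (0.56), Psmd12 (0.56) and Psmc2 (0.56), as log2 differences of the responses. These are 19.4% of the members, where 15% of all genes had a larger and 14.8% a smaller response. Under quantile normalization 4 members had a larger and 6 a smaller response. Psmc6, Psmc5, Psmd12 and Psmc2 each lost the call under some alternative setting.

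In 8 of 72 checks of a group of 4 arrays, 1 array lay further from the other 3 than Dixon's critical share of the range allows, and chance alone gives about 1 in 20. Replicate 2 of KO M0, an array of the 4th set, was the low array for Psmb6 (5.68), Psmb7 (2.53) and Psmd8 (3.64), and replicate 2 of WT M0, of the same set, for Psmb6 (5.78). In KO M2 replicate 4, also of that set, Psmd4 was low at 4.91. In WT M1 replicate 1 was high for Psmb2 (3.31) and replicate 4 for Psmb6 (6.74), in groups whose 3 other arrays lay within a few hundredths of a log2 unit. Psma8 was high in KO M1 replicate 2 (-1.08).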

How the results depend on the processing

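Quantile normalization turned the members' median in KO minus WT in M1 to -0.0929 and in the difference of the M1 responses to -0.0668. It moved the median to -0.0364 in KO minus WT in M0, 0.47 and 0.34 in M1 minus M0 of WT and KO, and 0.0735 in M2 minus M0 of KO. For M1 minus M0 in KO it turned Psma1 (-0.32), Psma6 (-0.0692), Psmb4 (-0.0591), Psmc1 (-0.23), Psmc3 (-0.29), Psmd13 (-0.10), Pomp (-0.16), Rps27a (-0.29), Uba1 (-0.17) and Vcp (-0.0131). The mean of a gene's probes turned Psmc6 in KO minus WT in M1 (-0.13) and in the difference of the M1 responses (-0.11), and Psmf1 (0.29), Nfe2l2 (0.27) and Rps27a (-0.0185) in M1 minus M0 of KO, and moved the members' median there to 0.83. Keeping outlier spots moved the median of KO minus WT in M0 to -0.15, that in M2 to -0.042 (9 of 36 members positive) and that of M2 minus M0 in WT to 0.09. With the array set as a block the counts of members called were 24 in KO minus WT in M1, 10 and 7 in M2 minus M0 of WT and KO, and 19 in the difference of the M1 responses. With the replicate number as a block they were 11 in the difference of the M1 responses and 2 in M2 minus M0 of KO. The replicate block also called Psmd1 and Psmd2 in KO minus WT in M1 (15 calls). For M2 minus M0 in KO the count was 2 with normexp, with the filter on all 24 arrays, with the mean of probes and with the slide block, and 5 without the 4th set. For M2 minus M0 in WT it was 2 with the mean of probes and 4 without the 4th set. Leaving out single arrays gave 8 to 16 calls in KO minus WT in M1, 28 to 31 and 29 to 34 in M1 minus M0 of WT and KO, 1 to 3 in M2 minus M0 of either genotype and 5 to 9 in the difference of the M1 responses. The medians ran from 0.03 to 0.25, 0.62 to 0.74, 0.86 to 1.01, 0.05 to 0.25 (WT), 0.11 to 0.26 (KO) and 0.17 to 0.37 in the same order, from -0.19 to -0.0503 in KO minus WT in M0, from -0.22 to -0.02 in M2 and from -0.09 to 0.12 in the difference of the M2 responses. WT M2 replicate 4 left out gave the 3 calls in WT M2, and KO M2 replicate 4 the 3 in KO M2. The cause of these changes was not tested.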
